A study of Mus musculus with 4 samples.

Results

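The comparison described here sets the 2 polysome arrays of a series of 4 against each other, the array labelled Npm1+/- (heterozygote) minus the array labelled Npm1+/+ (wild type). Both arrays carried ribosome-bound RNA of mouse embryonic fibroblasts, the matrix-making cells that grow out of embryo tissue in culture, of the strain the labels write as C57/BJ6. The other 2 arrays carried total RNA under the same genotype labels and are used to choose the probe set of each gene, to set the lower limit of level, and as values to read beside. Per the labels' protocols, which are worded alike for all 4 samples, RNA was taken from sucrose gradient fractions with Trizol and RNeasy columns, copied into double-stranded cDNA, amplified by T7 RNA polymerase and labelled with biotin. By its title and design the study concerns methylation of ribosomal RNA, and the arrays were to show whether the set of translated RNAs changes when Npm1 is lost. Each group was 1 array, so every value is a single measurement with no replicate error and no test between the labels was possible. Whether the total and the polysome array of a label came from the same culture, how many embryos each culture stood for and how the Npm1 allele was inactivated are not given in the sources used here.

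Polysomes are mRNAs with several ribosomes on them, and a sucrose gradient parts them from free RNA because they sediment faster. The amount of an mRNA found there depends on how much of it the cell holds and on how much of that is being translated. Nucleophosmin, the product of Npm1, is one of the most abundant proteins of the nucleolus, where ribosomes are made, and it associates with small nucleolar ribonucleoproteins (snoRNPs), the particles that guide methylation and pseudouridylation of ribosomal RNA.

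Each of 12394 genes with a probe set of 1 symbol was represented by its brightest probe set (highest mean of the 4 arrays), and 7180 genes whose highest value reached the median of all values, 7.53 on the log2 scale, were described. A difference is the heterozygote-labelled minus the wild-type-labelled log2 value, so that 1 is a 2-fold higher and -1 a 2-fold lower reading under the heterozygote label. Npm1 itself read 12.93 on the polysome array labelled wild type and 12.84 on that labelled heterozygote, a difference of -0.09, and its other probe set gave 0.06. Neither lay near the value of -1 that loss of 1 of 2 gene copies would give, and whether these probe sets cover the part of Npm1 that was inactivated is not known here. Directions below are therefore directions between libraries by their label. Of the 12 fibroblast markers listed, 12 were above the limit, with Vim, a filament protein of connective tissue cells, at 13.99 and 13.96 on the polysome arrays. Of the markers of other cells 1 of 10 endothelial, 0 of 9 epithelial, 1 of 9 skeletal muscle, 1 of 6 cartilage and bone, 0 of 5 adipocyte and 0 of 2 erythroid genes reached the limit on a polysome array, but 4 of 7 neural and 5 of 7 smooth muscle genes did. Macrophage markers reached it in 9 of 14 cases. Of these 9, 7 were above 0 in the difference between the polysome arrays (median 0.27). At 1.5-fold 3 (33.3%) were higher, beside 2.08% of all genes, and 0 were lower. The summed linear level of the macrophage markers was 3196 under the wild-type and 4178 under the heterozygote label in polysome RNA (1373 and 1663 in total RNA). Lyz2, a lysozyme, read 9.82 and 10.46, while Ptprc (4.5 and 4.6) and Adgre1 (6.2 and 6.1) were among the markers that stayed below the limit. The part of these markers in the results below was not tested.

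Between the polysome arrays, 84 genes (1.17% of 7180) read at least 2-fold lower and 6 (0.0836%) at least 2-fold higher in the library labelled heterozygote. At 1.5-fold the counts were 421 lower (5.86%) and 149 higher (2.08%). The median gene, in contrast, lay slightly above 0, at 0.11, and 62.9% of genes were above 0, a share that was 52.9% with no lower limit of level and 51.8% after a trend on level was subtracted. The lowest 1% of genes began at -1.05 and the highest 1% at 0.67. Counted from the median gene in place of 0, 129 genes were 2-fold lower and 5 higher, and the share of higher genes among those past 1.5-fold went from 26.1% to 9.30% (10.7% after a trend on level was subtracted). Probe sets of the same gene, compared over 2702 genes with at least 2 above the limit, differed with an SD of 0.28 in this comparison. The genes past 2-fold downward were found at every level of expression, with 13, 9, 19, 22 and 21 of them in 5 equal groups of genes ordered from low to high. Those nearest to the threshold were Copg1 (-1.001), Erdr1 (-1.001) and Timm8a1 (-1.005) inside it and Edc4 (-0.996), Lamb1 (-0.991) and Col11a1 (-0.987) just outside. On the higher side Purb (1.004) was the last inside, with Sox11 (0.998), Zfhx3 (0.993) and Dck (0.982) outside.

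**Figure D1:**
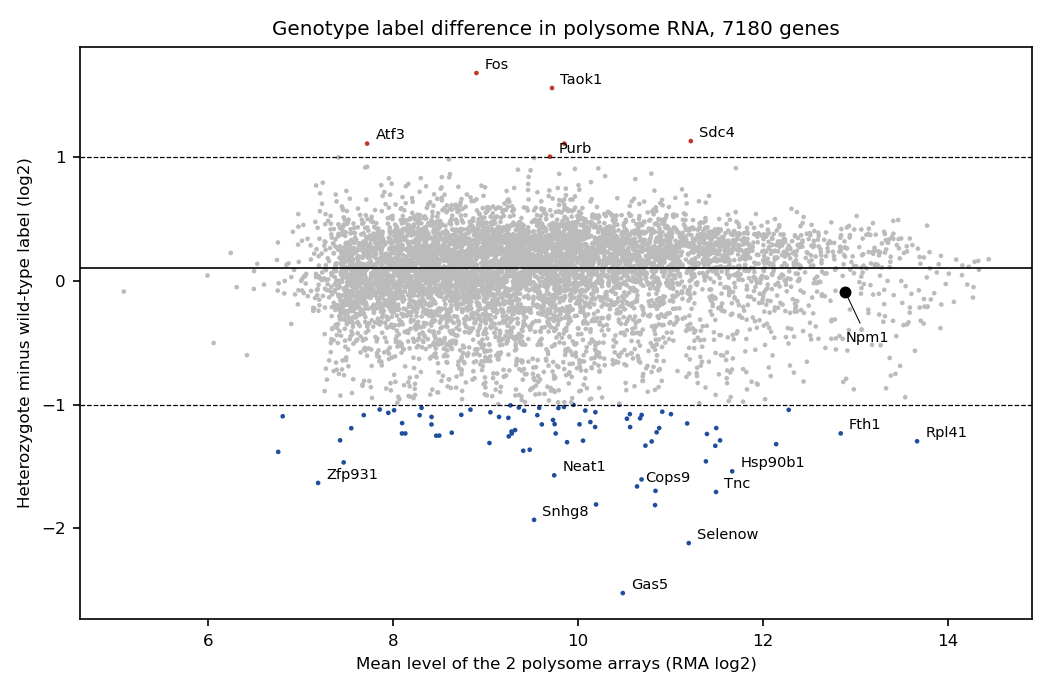
Difference between the polysome arrays (heterozygote minus wild-type label, log2) against the mean log2 level of the 2 polysome arrays for 7180 genes, 1 point per gene. Dashed lines mark 2-fold, the solid line the median gene at 0.11; the 84 blue points reach down to Gas5 at -2.52, while only 6 red points lie above the upper line, and Npm1 (black) lies close to 0.

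The highest reading gene was Fos, the inducible subunit of the transcription factor AP-1. It read 8.06 on the polysome array labelled wild type and 9.74 on that labelled heterozygote, 3.20-fold higher. In total RNA it read 8.29 and 9.43. Taok1, a kinase of the STE20 family that acts upstream of stress-activated MAP kinases, followed with 8.94 and 10.50 (2.95-fold). Its other probe sets above the limit gave 0.63, 0.52 and 0.93, the same direction at a smaller size. Sdc4, a heparan sulfate proteoglycan of focal adhesions, read 10.66 and 11.78 (2.19-fold), and 0.80 at its other probe set. Atf3, a stress-induced transcription factor, read 7.17 and 8.28 (2.16-fold), the lower value being below the limit. Purb, a single-stranded nucleic acid binding protein known to repress smooth muscle actin, read 9.20 and 10.20, with 0.70 and 0.52 at its other probe sets above the limit. The remaining gene, Rbfox2, is set aside because its 3 other probe sets lay between -0.31 and 0.01. Fos and Atf3 are each represented by 1 probe set, so no second reading exists for them.

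Other genes that growth factors and stress induce within minutes lay on the same side. Counts for these and later lists are to be read beside all 7180 genes, of which 62.9% lay above 0. Past 1.5-fold the shares of all genes were 2.08% upward and 5.86% downward. Of 15 measured AP-1 and ATF factors 12 were above 0 with a median of 0.33, beside 0.11 over all genes, and 4 passed 1.5-fold upward: Fos, Atf3, Jun (10.36 and 11.23, a difference of 0.87) and Junb (0.69). Of 37 other immediate early genes 31 were above 0 (median 0.30), 7 were at least 1.5-fold higher and none was 1.5-fold lower. They were led by the zinc finger factors Egr2, which read 7.24, below the limit, and 8.16 (0.92), and Egr1, which read 11.25 and 12.16 (0.91), then by the orphan nuclear receptor Nr4a1 (0.75) and by Phlda1 (0.67). Genes that switch MAP kinase signalling off again lay less high, with a median close to that of the proteasome genes described below (0.21). Of 18 such genes 15 were above 0 (median 0.24), with the dual-specificity phosphatases Dusp1 (0.74), Dusp6 (0.65) and Dusp16 (0.57) and the ubiquitin ligase Cbl (0.57) in front. Of 25 MAP kinases and their upstream kinases 23 were above 0, with a median of 0.17 that lies nearer to the median gene; Map3k3 (0.55), Mapk14 (0.52) and Map3k20 (0.39) came after Taok1. No member of these 4 lists was 1.5-fold lower. In total RNA the medians of the 4 lists were 0.31, 0.33, 0.27 and 0.28, beside 0.19 over all genes there.

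Promoter sequences of RefSeq (GRCm38.p6, 250 bases before to 50 after the start) matched 5865 of the 7180 genes, and those genes were searched for letters that inducible genes are known for. The cyclic AMP response element, TGACGTCA, to which ATF and CREB factors bind, was present in the 250 bases upstream of 3.15% of all 5865 genes, of 2 of the 124 genes at least 1.5-fold higher (1.61%) and of 3 of the 70 genes at least 2-fold lower (4.29%). The CArG box, the site of serum response factor, was present in 1.45% of all genes, in 1 of the 124 and in 1 of the 70. Both motifs read the same on either strand. Neither was more frequent among the higher genes than among all. The 3 genes of the higher set that hold one are shown because they include an immediate early factor, a phosphatase named above and 1 of the genes past 2-fold. The motif is in capitals, and its first base lies at position -143 from the start in Dusp1, -29 in Purb, and -72, -73 or -133 in Egr2 depending on which of 3 annotated starts is used. A further annotated start of Egr2 has another CArG box at -72, shown as the last line.
Dusp1, chr17:26508588-26508635, minus strand: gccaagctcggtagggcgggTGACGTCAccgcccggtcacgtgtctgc
Purb, chr11:6476078-6476125, minus strand: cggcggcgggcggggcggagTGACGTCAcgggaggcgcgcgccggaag
Egr2, chr10:67537777-67537826, plus strand: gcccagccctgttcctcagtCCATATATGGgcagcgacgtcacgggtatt
Egr2 at a further start, chr10:67537474-67537523, plus strand: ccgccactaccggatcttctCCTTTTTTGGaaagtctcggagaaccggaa
A match is a run of letters and no evidence of binding.

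Further genes between 1.5-fold and 2-fold higher, chosen after their values were seen, were Agap1, an Arf GTPase regulator (0.92), the corepressor Rcor1 (0.91), Ago2, the slicer of RNA interference (0.91), Nfat5, a tonicity-responsive factor (0.90), the kinase Hipk2 (0.89) and Elk4, a ternary complex factor that partners serum response factor (0.84). In the Nfat and Klf families of transcription factors, added after values were seen, 6 of 6 measured Nfat genes were above 0 (median 0.23, with Nfatc3 at 0.59) and 10 of 10 Klf genes (median 0.39, led by Klf7 at 0.73 and Klf3 at 0.57). Rab GTPases, switches of vesicle traffic, had 46 of 53 members above 0 and a median of 0.29, but only Rab8b (0.66) passed 1.5-fold. In the BMP and TGF-beta pathway 30 of 35 measured genes were above 0 (median 0.30), among them Grem1, a secreted BMP antagonist, at 10.46 and 11.19 (0.73), Id2 (0.61) and Fst (0.53), whereas Bmp1, a procollagen protease, lay at -0.58. In the insulin-like growth factor system 16 of 19 measured genes were above 0 (median 0.20), 2 at least 1.5-fold higher and 1 lower. The ligand gene Igf1 read 8.11 and 8.95 (0.84) and the binding protein gene Igfbp5 lay at 0.62; the lower one was Igf2r, the receptor that clears IGF2, which read 11.10 and 10.02 (-1.08). Of 23 Wnt pathway genes 18 were above 0 (median 0.21), with the coreceptor Lrp6 (0.78), the receptor Fzd4 (0.77) and the kinase Gsk3b (0.72) highest. These differences are small beside the 2-fold threshold, and of the 149 genes at least 1.5-fold higher, the 70 with a second probe set above the limit had 59 of the same sign there but only 24 at 1.5-fold.

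On the lower side, 180 of the 421 genes at least 1.5-fold lower had a second probe set above the limit, 177 of them with the same sign and 125 at 1.5-fold. Of the 84 genes at least 2-fold lower, 39 had another probe set above the limit, of which 38 had the same sign, 35 were at least 1.5-fold and 23 at least 2-fold lower. Among the 5 lowest genes 4 are RNAs not known for a protein, the other being Selenow, described with the short proteins. Gas5, a spliced transcript whose introns carry box C/D snoRNAs and whose exons are known to sit on ribosomes without a stable protein product, read 11.75 under the wild-type and 9.22 under the heterozygote label, 5.74-fold lower. Its other 3 probe sets, of which 1 lay above the limit, gave -0.82 to -2.03. Snhg8 read 10.49 and 8.56 (3.81-fold lower) and Snhg6 11.74 and 9.93 (3.51-fold lower), both also snoRNA hosts. Rian, an imprinted non-coding RNA that hosts further snoRNAs, read 11.10 and 9.29 (3.50-fold lower). All 6 snoRNA hosts measured were below 0, with a median of -1.81, and 5 of 6 were at least 1.5-fold lower; Snhg1 lay at -0.65 and Snhg5 at -0.58. Over the 8 hosts on the array, those below the limit included, the median was -1.34. Neat1, the scaffold of nuclear paraspeckles, read 10.53 and 8.96 (2.97-fold lower) in RNA labelled as ribosome-bound. Also among the 25 lowest were Zfp931 (8.01 and 6.38, the second below the limit, -1.63) and Lmo7 (7.45 and 6.07, both below the limit, -1.38). Tmem134 (-1.36), Cd109 (-1.31), Rsrp1 (-1.30) and Polr2m (-1.30) belonged to the same 25 and are not described further.

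**Figure D2:**
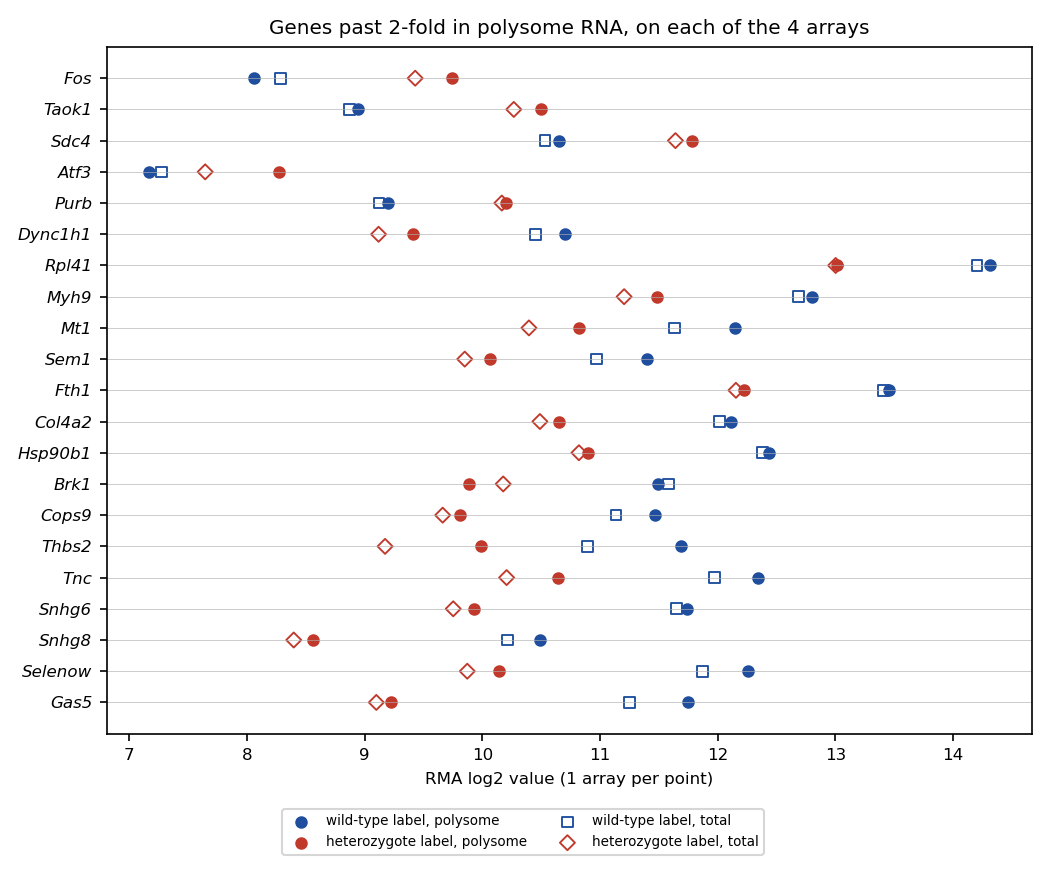
RMA log2 values of 21 genes past 2-fold in polysome RNA on each of the 4 arrays, 1 point per array (filled, polysome; open, total; blue, wild-type label; red, heterozygote label). In the 5 genes at the top the red points lie right of the blue ones, in the 16 below they lie left, from Dync1h1 (10.70 and 9.41 in polysome RNA) to Gas5 (11.75 and 9.22).

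Genes of the extracellular matrix followed. RNA pooled from a culture cannot tell fewer cells of a type from less RNA per cell, for these or any other genes here. Tnc encodes tenascin C, a large adhesion-modulating glycoprotein, and read 12.35 and 10.64 (3.26-fold lower). Thbs2, a thrombospondin, read 11.69 and 9.99 (3.24-fold lower), with a second probe set at -1.27. Col4a2, a chain of basement membrane collagen, read 12.11 and 10.65 (2.75-fold lower). Its partner chain Col4a1, which is transcribed from the same locus in the opposite direction, read 12.80 and 11.76 (2.06-fold lower). Every one of 19 measured collagens was below 0 (median -0.88), 13 of them at least 1.5-fold lower and 4 at least 2-fold lower, the other 2 being the microfibrillar Col6a3 (-1.23) and the fibril-associated Col12a1 (-1.12). With the 10 collagens below the limit included the median was -0.35. The abundant fibrillar chains were not among the lowest: Col1a1 read 14.3 and 14.2 and Col3a1 13.69 and 13.48 (-0.21).

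Matricellular and basement membrane proteins had a median of -0.52 over 37 genes, with 30 below 0 and 7 at least 2-fold lower. After Tnc and Thbs2 these were Nid2, a basement membrane linker (-1.23), the latent TGF-beta binding proteins Ltbp2 (-1.18) and Ltbp1 (-1.11), the laminin chain Lamc1 (-1.04) and Thbs3 (-1.04). On the polysome array labelled heterozygote Nid2 (7.48) and Thbs3 (7.49) read below the limit. Of 9 integrins, the cell's receptors for this matrix, 8 were below 0 (median -0.44), with Itga8 (7.36 and 6.26, both below the limit, -1.09), Itga7 (-0.94), Itga5 (-0.47) and, on the other side, Itgb5 (0.47). The enzymes that hydroxylate, cleave and crosslink collagen did not share this. Their 27 genes had a median of 0.05, with 14 above and 13 below 0, a sign that turned under 5 of the 11 alternative settings, and with Loxl3 (-0.70) and Plod1 (-0.64) lowest. Matrix proteases and their inhibitors had a median of 0.12 over 28 genes (-0.01 after the trend on level was subtracted), with Plat (-0.67) and Adamts1 (-0.65) lowest and Timp3 (0.54) highest. Proteoglycans and the enzymes of their sugar chains lay at 0.10 (31 genes, below 0 relative to the median gene), between Sdc4 at 1.13 and Vcan at -0.83.

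Several of the lowest genes encode very short proteins. Selenow, a small selenoprotein, read 12.26 and 10.14 (4.34-fold lower), with a second probe set at -2.26. Cops9, the smallest subunit of the COP9 signalosome, read 11.47 and 9.81 (3.16-fold lower), with -1.68 and -0.52 at its other probe sets. Brk1, the smallest subunit of the WAVE complex that triggers actin branching, read 11.49 and 9.89 (3.04-fold lower) and -1.52 at the other probe set. Sem1, a small proteasome lid subunit, read 11.40 and 10.06 (2.52-fold lower), and -1.38 at the other. Rpl41, the shortest protein of the large ribosomal subunit, read 14.31 and 13.02 (2.45-fold lower), and its other 3 probe sets, of which 1 lay above the limit, gave -0.73 to -1.40. Other members of these complexes lay nearer to 0. Of 22 COP9 signalosome and cullin genes 10 were above 0 (median -0.06, or 0.01 with probe sets averaged), and of 14 actin nucleation genes 12 were (median 0.21), where only Brk1 and Arpc1a (-0.75) were 1.5-fold lower.

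Some of the genes at least 2-fold lower encode very large proteins, at the other end of the size range. Myh9, the heavy chain of non-muscle myosin II, read 12.80 and 11.48 (2.49-fold lower), with -1.62, -1.56 and -1.04 at its other probe sets. Dync1h1, the heavy chain of cytoplasmic dynein, read 10.70 and 9.41 (2.45-fold lower). Iqgap1, a cytoskeletal scaffold, read 12.18 and 10.89 (-1.29), and Prpf8, the largest protein of the spliceosome, 10.38 and 9.14 (-1.23). Talin (Tln1, -1.08), alpha spectrin (Sptan1, -1.06), fatty acid synthase (Fasn, -1.08) and Cad, the fused enzyme that starts pyrimidine synthesis (-1.16), belong here too.

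To describe this over more genes, lists of very large and very short proteins were written from general knowledge. They were written after the lowest genes had been seen and hold some of them, so their counts describe and support nothing. Of 81 measured genes for very large proteins 66 were below 0, with a median of -0.47; 18 were at least 2-fold and 37 (45.7%) at least 1.5-fold lower, and 1, the zinc finger factor Zfhx3, was 1.5-fold higher. Of 99 measured genes for very short proteins 75 were below 0, with a median of -0.34; 17 were at least 2-fold and 32 (32.3%) at least 1.5-fold lower and none was 1.5-fold higher. Among the 7000 genes on neither list, 5.03% were at least 1.5-fold lower. The large proteins made up 21.4% and the short ones 20.2% of the 84 lowest genes while being 1.13% and 1.38% of all. With every gene past 2-fold left out, 30.2% of 63 large, 18.3% of 82 short and 4.75% of all 7090 genes were 1.5-fold lower. The members left were listed in the same way, so these shares too describe and support nothing. In total RNA the medians were -0.53 for the large and -0.18 for the short proteins. The length of the gene on the chromosome, which these lists did not use, was looked at as well: with the genes cut into 10 equal groups, 9.05%, 9.34% and 8.91% were 1.5-fold lower in the 3 groups of the longest genes, beside 3.07% to 5.59% in the 7 others. The same 3 groups also held more 1.5-fold higher genes, 2.65%, 4.74% and 3.34% beside 0.834% to 2.09%, and their medians (0.09, 0.11 and 0.07) were close to that of all genes.

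**Figure D3:**
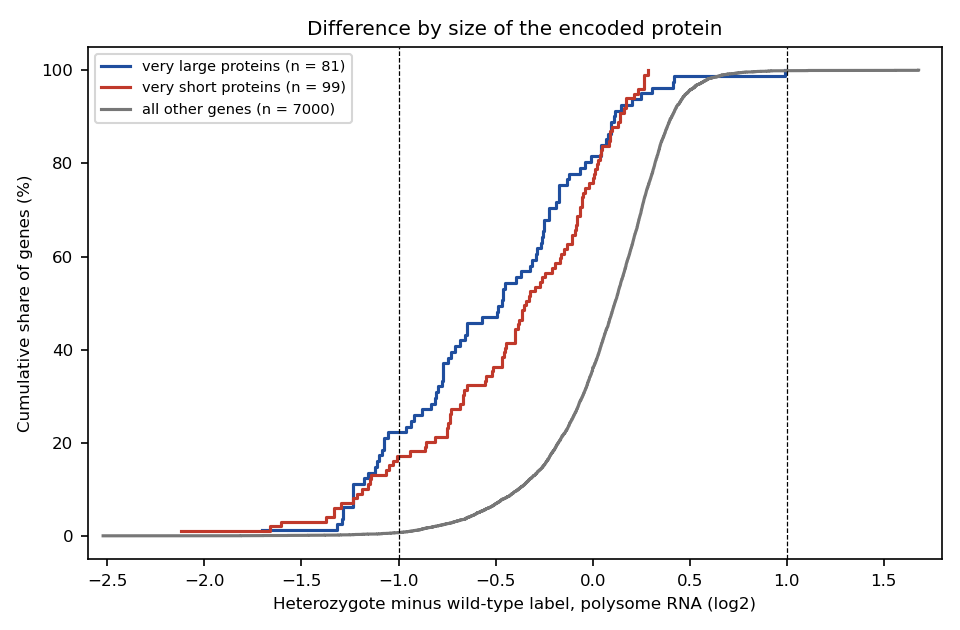
Cumulative share of genes (%) against the difference between the polysome arrays (log2) for 81 genes of very large proteins, 99 of very short proteins and the 7000 other measured genes. Both coloured curves lie left of the grey one, with medians of -0.47 and -0.34 beside 0.11; dashed lines mark 2-fold.

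The study asks about translation, and the genes of its own machinery are described next. All 22 measured proteins of the small ribosomal subunit were below 0, with a median of -0.34, and 6 were at least 1.5-fold lower. Rps27 read 8.48 and 7.42 (-1.07), the second below the limit, where the list median on the polysome array labelled wild type was 13.5. Rps29 read 14.01 and 13.07 (-0.94), Rpsa, the laminin-receptor ribosomal protein, 13.76 and 12.90 (-0.87), and Rps27l 12.84 and 12.03 (-0.81). Of 22 proteins of the large subunit 18 were below 0, with a median of -0.16 and 3 at least 1.5-fold lower: Rpl12, which read 8.20 and 6.74 (-1.47), Rpl41, and Rpl37 (-0.65). The second reading of Rpl12 was below the limit, and the list median on the polysome array labelled wild type was 13.5. Rplp0, of the stalk, lay at -0.56. Ribosomal protein genes have many near-identical pseudogene copies, and where a probe set could pick these up its value is uncertain.

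The mRNAs of ribosomal proteins and several snoRNA hosts are known to begin with a run of pyrimidines from the cap on (the 5-prime terminal oligopyrimidine, or TOP, motif), through which their translation is regulated. A run of at least 8 letters, all C or T and beginning with C, within 15 bases either side of an annotated start on the transcript strand was found in 12.7% of the 5865 genes and in 19 of 39 ribosomal protein genes (48.7%). It was found in 10 of the 70 genes at least 2-fold lower (14.3%) and in 16 of the 124 at least 1.5-fold higher (12.9%). The median difference was 0.09 with and 0.11 without the run, and among ribosomal protein genes -0.21 with and -0.35 without it. Since ribosomal protein mRNAs are known for the motif, finding it in 48.7% of them shows that this search misses many. It depends on where the start is annotated, so a gene without a run here may still have the motif. The 2 medians therefore cannot tell whether the difference goes with the motif. The 30 bases around the start are shown for 2 ribosomal proteins and 3 snoRNA hosts described above (plus strand unless stated), with the longest pyrimidine run in capitals. In the starts shown it ran from 5 letters in Rpsa to 9 in Rps27 and Snhg1. Of these starts only that of Rps27 holds a run as defined above. The run of Snhg1 begins with T, and those of Rpsa, Gas5 and Snhg8 have fewer than 8 letters. At the first annotated start of Gas5, not shown, the longest run had 3.
Rps27, chr3:90213634-90213663, minus strand: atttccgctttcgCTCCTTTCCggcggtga
Rpsa, chr9:120127751-120127780: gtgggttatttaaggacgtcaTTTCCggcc
Gas5 at its second annotated start, chr1:161035151-161035180: agccgccatctcagCCTTTCggagctgtgc
Snhg8, chr3:123508322-123508351, minus strand: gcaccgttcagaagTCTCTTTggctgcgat
Snhg1, chr19:8723472-8723501: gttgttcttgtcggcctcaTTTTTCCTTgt

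Of 46 translation initiation and elongation factors 30 lay below the median gene (list median -0.02), 8 (17.4%) were at least 1.5-fold lower and none was 1.5-fold higher. The lower ones were led by Eif5b, which joins the subunits (9.86 and 8.92, -0.93), the poly(A)-binding proteins Pabpc1 (-0.76) and Pabpc4 (-0.71), and Eif3c (-0.70). Aminoacyl-tRNA synthetases, which charge tRNAs, lay lower. Of 21 genes 17 were below 0 (median -0.26), 8 were at least 1.5-fold and 2 at least 2-fold lower: Eprs, the fused glutamyl-prolyl enzyme, read 11.15 and 9.97 (-1.18) and Lars, the leucyl enzyme, 10.72 and 9.66 (-1.06), ahead of Aars (-0.92) and Qars (-0.79).

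The machinery that makes and modifies ribosomal RNA is closest to the known roles of nucleophosmin. Of 13 genes of box C/D snoRNPs, which direct the 2'-O-methylation of ribosomal RNA, 6 were above and 7 below 0, with a median of -0.01 that turned positive under 2 of 11 settings; Nolc1 (-0.42) and Znhit3 (0.35) lay farthest out and none reached 1.5-fold. Of 9 genes of H/ACA snoRNPs and pseudouridylation 6 were above 0 (median 0.13), with Pus1 (9.21 and 9.60, 0.39) and Gar1 (0.33) highest. Among 71 ribosome biogenesis genes 43 were below 0 and 52 below the median gene, the list median was -0.17, and 10 (14.1%) were at least 1.5-fold lower. These were led by the exonuclease Xrn2, which read 9.88 and 8.63 (-1.26), the nucleolar Mybbp1a (-0.95), Polr1a, the largest subunit of RNA polymerase I (-0.94), and Heatr1 (-0.92). In total RNA the biogenesis median was -0.01.

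**Figure D4:**
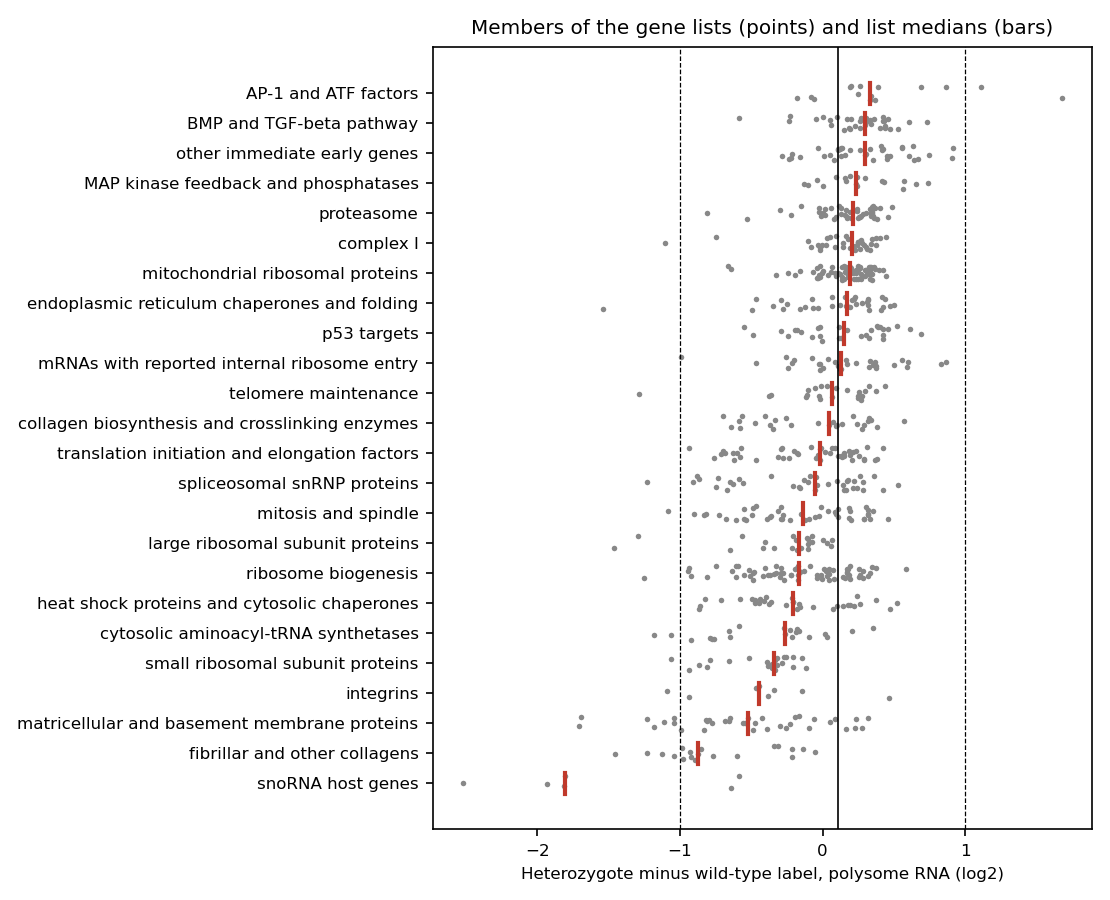
Difference between the polysome arrays (log2, heterozygote minus wild-type label) for the measured members of 24 gene lists, 1 grey point per gene with the list median as a red bar, the median of all genes (0.11) as a solid line and 2-fold as dashed lines. Medians run from -1.81 for snoRNA hosts and -0.88 for collagens to 0.33 for AP-1 and ATF factors.

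Genes of secretion were mixed. Hsp90b1, the HSP90 paralogue of the endoplasmic reticulum, read 12.44 and 10.90 (2.90-fold lower), but -0.56 at its other probe set. The 34 other chaperones and folding enzymes of this compartment included none past 1.5-fold in either direction, from Os9 (-0.50) to Sdf2l1 (0.50). The list of 35 had a median of 0.17 with 23 above 0, beside 0.11 and 62.9% over all genes. Rrbp1, a ribosome receptor of the rough endoplasmic reticulum, read 11.46 and 10.24 (-1.22), but -0.61 and -0.55 at its other probe sets. Rrbp1 is named after its value was seen. The coat proteins of vesicles, a list added after values were seen, had a median of -0.09 over 22 genes. Within them the large COPI coat subunits Copb2 (11.76 and 10.61, -1.15), Copg1 (-1.001), Copb1 (-0.94) and Copa (-0.94) all lay low. The other probe set of Copb2 gave -0.93 and that of Copg1 -0.52. Cytosolic chaperones and heat shock proteins had 22 of 33 genes below 0 (median -0.20), led by the HSP110 member Hsph1 (-0.86), the mitochondrial Trap1 (-0.86), Hspa4 (-0.82) and Hspa9 (-0.72), and the 7 subunits of the CCT folding ring were all below 0 (median -0.26, Cct8 -0.47, Cct4 -0.41).

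Mitochondrial and proteasome genes mostly lay slightly above the median gene with single members far below. Of 74 mitochondrial ribosomal proteins 59 were above 0 (median 0.19), with Mrpl33 (-0.66) and Mrpl42 (-0.64) as the only members past 1.5-fold. Of 36 complex I genes 28 were above 0 (median 0.20), while Ndufs1, its largest subunit, read 9.80 and 8.70 (-1.11) and Ndufc1 -0.75. Complexes II to V had a median of 0.14 over 39 genes (mean -0.01) with Sdha, the flavoprotein of complex II (11.23 and 10.15, -1.08), the small ATP synthase subunit Atp5e (10.60 and 9.56, -1.05), Uqcrh (-0.86) and Uqcr10 (-0.86) lowest. Of 47 proteasome genes listed 39 were above 0 (median 0.21), with the largest base subunits Psmd1 (-0.81) and Psmd2 (-0.53) lowest on the list. The lid subunit Sem1, described above with the short proteins, was not on this list and lay lower (-1.33).

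Metal-handling proteins were a list added after values were seen, with a median of -0.14 over 27 genes and 5 at least 2-fold lower. The metallothioneins Mt1 and Mt2, small cysteine-rich proteins that bind zinc and copper, read 12.15 and 10.82 (2.52-fold lower) and 12.01 and 10.78 (2.36-fold lower). The ferritin heavy chain Fth1, which stores iron, read 13.46 and 12.22 (2.35-fold lower), with a second probe set at -1.42. The copper chaperones Atox1 (12.09 and 10.90, -1.19) and Cox17 (10.33 and 9.17, -1.16) are short proteins as well. Among 18 selenoprotein genes 11 were above 0 (median 0.14, mean -0.15), so that Selenow, Selenoh (10.10 and 8.72, 2.59-fold lower) and the glutathione peroxidase Gpx1 (12.27 and 11.30, -0.98) lay far below the rest of the list. A list of cholesterol synthesis and uptake that also holds fatty acid synthesis genes had a median of -0.05 over 28 genes. Its 2 members at least 2-fold lower were of fatty acid synthesis: Acly, which makes cytosolic acetyl-CoA (11.23 and 10.12, -1.11), and Fasn (10.10 and 9.02, -1.08).

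In the nucleus, spliceosomal snRNP proteins had a median of -0.05 over 37 genes and 9 at least 1.5-fold lower, led by Prpf8, Prpf6 (-0.91), Sf3b1 (-0.88) and Eftud2 (-0.86). Nuclear pore proteins had 7 of 18 genes at least 1.5-fold lower (Nup160 -0.93, Nup133 -0.85; median -0.34), and importins, a family added after values were seen, 4 of 6 (Ipo5 -0.90, Ipo9 -0.80; median -0.68). Mitotic genes had a median of -0.14 over 46 genes, which was 0.11 over those that passed the higher limit of level, and 7 were at least 1.5-fold lower, led by the topoisomerase Top2a (9.28 and 8.20, -1.08), the microtubule protein Ckap5 (-0.90) and the condensin subunits Ncapd2 (-0.83) and Smc2 (-0.82).

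The disorder named in the series title is one of telomere maintenance, and 23 genes of that process had a median of 0.07 (-0.04 relative to the median gene). Of these 23, 13 were above 0, beside 62.9% of all genes. Atrx, a chromatin remodeller active at telomeres, read 8.07 and 6.79 (-1.29), the second below the limit. The next largest differences were Tnks2 (0.44), Ten1 (0.38) and Ctc1 (-0.37). Genes that p53 induces had a median of 0.15 over 30 genes, with Zmat3 (10.82 and 11.51, 0.69) and Rrm2b (0.61) at least 1.5-fold higher and none 1.5-fold lower. The mRNAs reported to be translated from internal ribosome entry sites, a mode sensitive to ribosomal RNA modification in earlier work, had a median of 0.13 over 31 genes, with 20 above and 10 below 0. None was past 2-fold: Jun (0.87), Runx1 (7.89 and 8.72, 0.83), Ptch1 (0.60) and the cell cycle inhibitor Cdkn1b (9.25 and 9.84, 0.59) were at least 1.5-fold higher and the laminin gene Lamb1 (10.94 and 9.95, -0.99) lower.

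The same genes were also apart in total RNA. Of the 84 genes at least 2-fold lower in polysome RNA, 84 were below 0 in total RNA, 83 were at least 1.5-fold and 73 at least 2-fold lower, where over all genes the shares in total RNA were 33.6%, 6.23% and 1.49%; these 73 are 86.9% of the polysome and 68.2% of the 107 total RNA genes. The median of the 84 was -1.19 in polysome and -1.21 in total RNA. Of the 6 higher genes 5 were also 2-fold higher in total RNA, out of 17 there (0.237% of all genes). At 1.5-fold, counted from 0, total RNA had more higher than lower genes, 533 (7.42%) and 447 (6.23%), unlike polysome RNA with 149 and 421. The median gene lay at 0.19 in total and 0.11 in polysome RNA. Counted from it, both leaned downward at 2-fold, with 208 lower and 3 higher in total RNA and 129 and 5 in polysome RNA. No gene was 1.5-fold higher in one kind of RNA and 1.5-fold lower in the other. The largest gap belonged to Atf3, which read 7.27 and 7.65 in total RNA (0.37) and 7.17 and 8.28 in polysome RNA (1.11), near the limit of level in 3 of the 4. Fos lay farther up in polysome (1.68) than in total RNA (1.14), and Tmem242 farther down (-1.08 and -0.49). Gas5 was likewise lower in polysome (-2.52) than in total RNA (-2.15). In the other direction lay the RNA helicase Dhx9 (-1.02 and -1.53), Col12a1 (-1.12 and -1.61), Sptan1 (-1.06 and -1.53), Neat1 (-1.57 and -1.97), the hyaluronan-binding Cemip (-1.04 and -1.43) and Rpl12 (-1.47 and -1.85). All of these gaps except those of Atf3 and Tmem242 came to less than 0.54 on the log2 scale. The SD between probe sets, 0.28 in polysome and 0.32 in total RNA, compares different probe sets of a gene. It does not measure the error of these gaps, which 1 array per group leaves unknown.

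**Figure D5:**
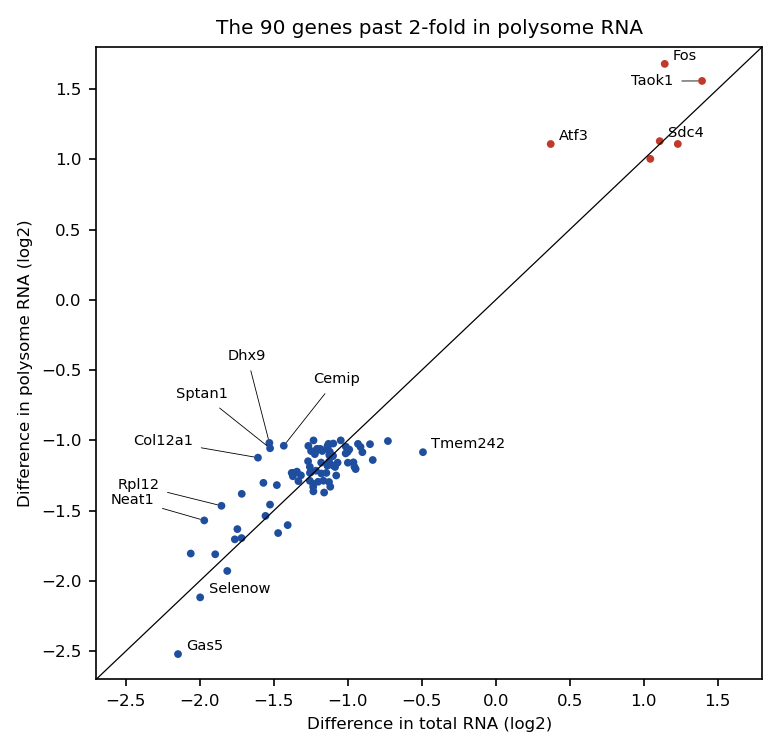
Difference between genotype labels in polysome RNA against that in total RNA (both log2) for the 90 genes past 2-fold in polysome RNA, 1 point per gene (red, higher; blue, lower), with the line of equality. All points lie on the same side of 0 on both axes; Atf3 (0.37 and 1.11) and Tmem242 (-0.49 and -1.08) lie farthest from the line.

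Control measures of the arrays were looked at as well, and they differed between the labels to unlike degrees. The manufacturer's control probe set for the B1 repeat, a short interspersed element common in introns and untranslated regions, read 13.5 under the wild-type and 10.2 under the heterozygote label in polysome RNA, 9.74-fold lower, more than any of the 7180 genes. The 2 control probe sets for the B2 repeat gave -0.19 and -0.47. The signal of the 3-prime over the 5-prime control probe set, a sign of RNA integrity, was 0.01 and 0.05 for Actb, -0.09 and -0.02 for Gapdh, 0.25 and 0.11 for Pcx and 1.58 and 1.71 for Tfrc under the wild-type and heterozygote labels. The 18 hybridisation controls (BioB, BioC, BioD and Cre) differed by -0.22 to 0.06. The part of these in the gene differences was not tested. No chromosome stood out by its median: autosome and X medians ran from 0.07 to 0.14, with 0.13 on chromosome 11, which carries Npm1. The share of genes at least 1.5-fold lower was 5.86% over all genes. By chromosome it ran from 4.51% on chromosome 8 to 8.17% on chromosome 9 and 8.54% on X. The Y-linked Eif2s3y read 9.07 and 8.98, and Xist, the RNA that coats the inactive X chromosome, lay below the limit on all arrays.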

How the data were processed

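The deposited table holds log2 values of 22690 probe sets on each of 4 Affymetrix 3-prime arrays. Per the submitters' processing notes the authors used R 3.4.3, affy 1.56.0 and RMA, which corrects background, normalises between arrays and summarises probes; settings and genome build are not given in the sources used here. RMA as commonly run gives the probes of all arrays one distribution, so a change shared by most RNAs would not show. Probe sets were named from the platform annotation: 20393 had 1 symbol, 691 several. Differences of the deposited log2 values were computed per gene in Python 3.11.15 (pandas 2.3.3, numpy 2.4.6; loess from statsmodels 0.14.6). With 1 array per group there is no test, and precision is limited by the number of arrays.

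The members and gene lists were chosen with earlier results of these data known; 5 lists and some symbol families, as stated beside them, were added after values were seen. The named genes are Npm1, all genes 2-fold higher, the 25 lowest, up to 4 members with the largest difference and those past 2-fold of each list described, the 2 largest of each symbol family, and the 10 genes past 2-fold whose polysome difference lies farthest from that in total RNA. Rbfox2, Asph, Gart and Ogt were passed over because another probe set above the limit had the opposite sign. A planned comparison by protein length was replaced by gene length and lists written from general knowledge, since protein sequences were not used here. The calculation was tested on simulated data. Alternatives averaged the probe sets of a gene or used no _x_at or _s_at probe sets, 4 other limits of level, 3 other scalings, differences from the median gene and thresholds of 1.5-fold and 3-fold.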

Additional observations from a re-analysis of the deposited data

Results flagged for a closer look

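The report uses only probe sets with 1 gene symbol. Among the 525 probe sets at or above the limit of level with no symbol, 1 was at least 2-fold higher in polysome RNA under the heterozygote label (1.06 on the log2 scale) and 14 were at least 2-fold lower (down to -1.60). Among 412 with several symbols 0 were higher and 11 lower.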

How the results depend on the processing

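The 84 lower and 6 higher genes at 2-fold became 421 and 149 at 1.5-fold and 10 and 1 at 3-fold. Relative to the median gene 129 were lower and 5 higher, and after a loess trend on level was subtracted 130 and 3. With the probe sets of each gene averaged 84 were lower, of which 66 were among the original 84, and 2 were higher. The other settings gave 63 to 102 lower and 5 to 8 higher genes. The median gene lay between 0.01 and 0.15 under the settings other than the one that sets it to 0. With probe sets averaged, Gas5 was at -1.57, Hsp90b1 at -1.05, Mt1 at -0.75, Taok1 at 0.91, Purb at 0.53 and Rbfox2 at 0.16. Among gene values under the alternatives, 830 moved by less than the SD between probe sets and 22 by more, and among list medians 622 and 5. No gene past 2-fold changed sign. No paired analysis was possible because each group has 1 array and the labels give no replicate numbers, and for the same reason no array could be left out. Both polysome readings reached the limit of level in 71 of the 84 lower and 5 of the 6 higher genes. Genes near the limit, such as Atf3, Itga8, Rpl12, Rps27 and Atrx, have at least 1 reading that may be background.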
